A study of Mus musculus with 29 samples.

Results

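Colitis in TRUC mice was examined here across the whole colon transcriptome, in 4 TRUC mice and 3 untreated Rag2-/- controls, which are 7 of the 29 mice of the series. The labels name no promoter, clone or pooling, and germline deletions are not limited to 1 cell type. The 7 mice were taken by their labels for genotype and treatment. The TRUC mice were labelled Balb/C Tbx21-/- x Rag2-/- and the controls Balb/C Rag2-/-, and neither group was treated. Both groups therefore carried the Rag2 deletion by label, and Tbx21 was the locus at which the labels set them apart. Each library came from the colon of 1 mouse, and the labels give no age. Further models (DSS, DNBS and IL10) of the series were used for comparison against their own 3 untreated Balb/C wild-type controls. These were Balb/C mice given 3% DSS for 5 days and culled at day 10 (n = 3), Balb/C mice given 3 mg of DNBS (n = 3), and Balb/C mice given 750 µg of an IL10 blocking antibody and culled at 4 weeks (n = 4).

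Rag2 is needed to cut and rejoin the genes of antigen receptors, so that mice without it make no mature T or B cells. Tbx21 encodes T-bet, a transcription factor of type 1 lymphocytes that is also made by dendritic cells and other innate cells. TRUC mice lack both and develop colitis on their own in the absence of adaptive lymphocytes, and tumour necrosis factor and innate lymphoid cells that make IL-17A and IL-22 are known to take part in it. IL-22 acts on the epithelium through STAT3 and is known for raising antimicrobial proteins and chemokines. A healthy colon absorbs water and salt through its surface colonocytes, secretes mucus from goblet cells and renews both from stem cells in the crypts.

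Library totals ran from 12040245 to 14317858 counts in TRUC and from 10725564 to 13051318 in the controls (exact two-sided permutation test of the means, p = 0.514). With 4 and 3 mice an exact test cannot go below p = 0.0571. Levels are given below as CPM, the read count scaled to the depth of the library, with the TRUC mice in the order of their numbers 2, 3, 4 and 5 and the controls in the order 1, 2 and 4. A count of 0 allows up to 3 counts, which is between 0.221 and 0.275 CPM in TRUC and between 0.227 and 0.266 CPM in the controls, and such limits cover counting error only. The first principal component of the 7 mice held 78.1% of the variance and separated the groups. Mitochondrial transcripts took 1.44%, 1.42%, 1.56% and 1.49% of the counts in TRUC and 2.03%, 2.10% and 2.20% in the controls, without overlap (exact permutation test, p = 0.0571, the smallest possible). Every pair of mice within a group differed by more than sampling noise, with a chi-square of 7.28 to 14.1 per degree of freedom. Since 1 colon gave 1 library, p-values measure the spread between mice. In bulk tissue, fewer cells of a type and less RNA per cell cannot be told apart.

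The targeted genes were read first. Tbx21 was counted 33, 52, 35 and 26 times in the TRUC mice and 1, 1 and 7 times in the controls, at 3.1 ± 1.12 against 0.231 ± 0.258 CPM (SD). Rag2 was counted 94, 63, 57 and 63 times in TRUC and 25, 17 and 15 times in the controls, while the 3 wild-type libraries held 0 to 1 count. Both genes were thus higher in TRUC, with a log2 fold change of 3.64 for Tbx21 (SE 0.611) and 1.89 for Rag2 (SE 0.426). The library protocol as labelled has no step that marks strand, and counts per gene do not show which exons are transcribed, so neither gene checks the deletion. Lymphocyte transcripts were read against the shared label. All 11 tested markers of B and plasma cells were lower in TRUC than in wild-type colon, with a median log2 fold change of -7.09. Of the 12 markers of T cells only 4 were lower than in wild-type colon, and 1 of these was Cd3e, with 2 counts in TRUC and 1 in the Rag2-/- controls in all.

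A few transcripts set the controls apart in a way that the strain label does not give. Rpl26, a ribosomal protein gene, was at 364, 364, 442 and 381 CPM in TRUC and at 13.9, 14.7 and 12.2 CPM in the Rag2-/- controls. Gm15772, which shares 91.5% of its 50-base windows with other genes and most with Rpl26, was the mirror image, at 15.3, 14.2, 17.8 and 14.7 CPM in TRUC and 400.2, 427 and 404 CPM in the controls. Arl2bp was at 97.0 ± 5.01 CPM in TRUC (SD, n = 4) and 16.1 ± 1.32 CPM in the Rag2-/- controls (SD, n = 3). In all 3 genes TRUC lay with the mice labelled Balb/C wild type, which had 361 ± 6.56 CPM of Rpl26 and 86.9 ± 5.72 CPM of Arl2bp, and the Rag2-/- controls lay with the untreated mice labelled C57BL/6 Rag1-/-, which had 10.1 ± 1.42 and 19.8 ± 2.70 CPM (SD, n = 3 each). The division did not follow the strain labels, since other groups with the same C57BL/6 Rag1-/- label fell on both sides of it. Mice given naive CD4 T cells were at 351 ± 14.3 CPM of Rpl26, 13.8 CPM of Gm15772 and 95.9 CPM of Arl2bp, and mice given anti-CD40 antibodies at 11.2, 362 and 20.5 CPM (n = 3 each). Nlrp1b, an inflammasome sensor gene that varies between mouse strains, did not follow this division. It was at 1.99, 2.31, 2.11 and 0.733 CPM in TRUC and 0.354, 0.459 and 0.529 CPM in the controls, against 21.4 ± 0.509 CPM in wild-type colon (SD, n = 3). Every TRUC mouse and every Rag2-/- control lay on opposite sides of the division in Rpl26, Gm15772 and Arl2bp. Line differences and colitis therefore cannot be told apart for any gene in this comparison. For this reason counts are also given, where they moved by more than 1.5 times, with the wild-type controls in place of the Rag2-/- controls, a setting added after seeing the data.

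Of 18616 genes tested, 4163 (22.4%) were higher and 4361 (23.4%) lower in TRUC by edgeR's quasi-likelihood test with an adjusted p below 0.05. No overlap between the 7 mice was found in 4071 of the higher genes, 21.9% of all tested, and in 4158 of the lower, 22.3%. The median log2 fold change over all genes was -0.03, and upper quartile scaling moved it to -0.14. Genes are called here by this fit over all 9 groups. When the 7 mice were fitted alone, DESeq2 called 19 of the genes given below as not called and edgeR 17, and their values stand beside those genes. The lists below hold genes chosen by known role or cell type, and their counts are read against these shares.

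**Figure D1:**
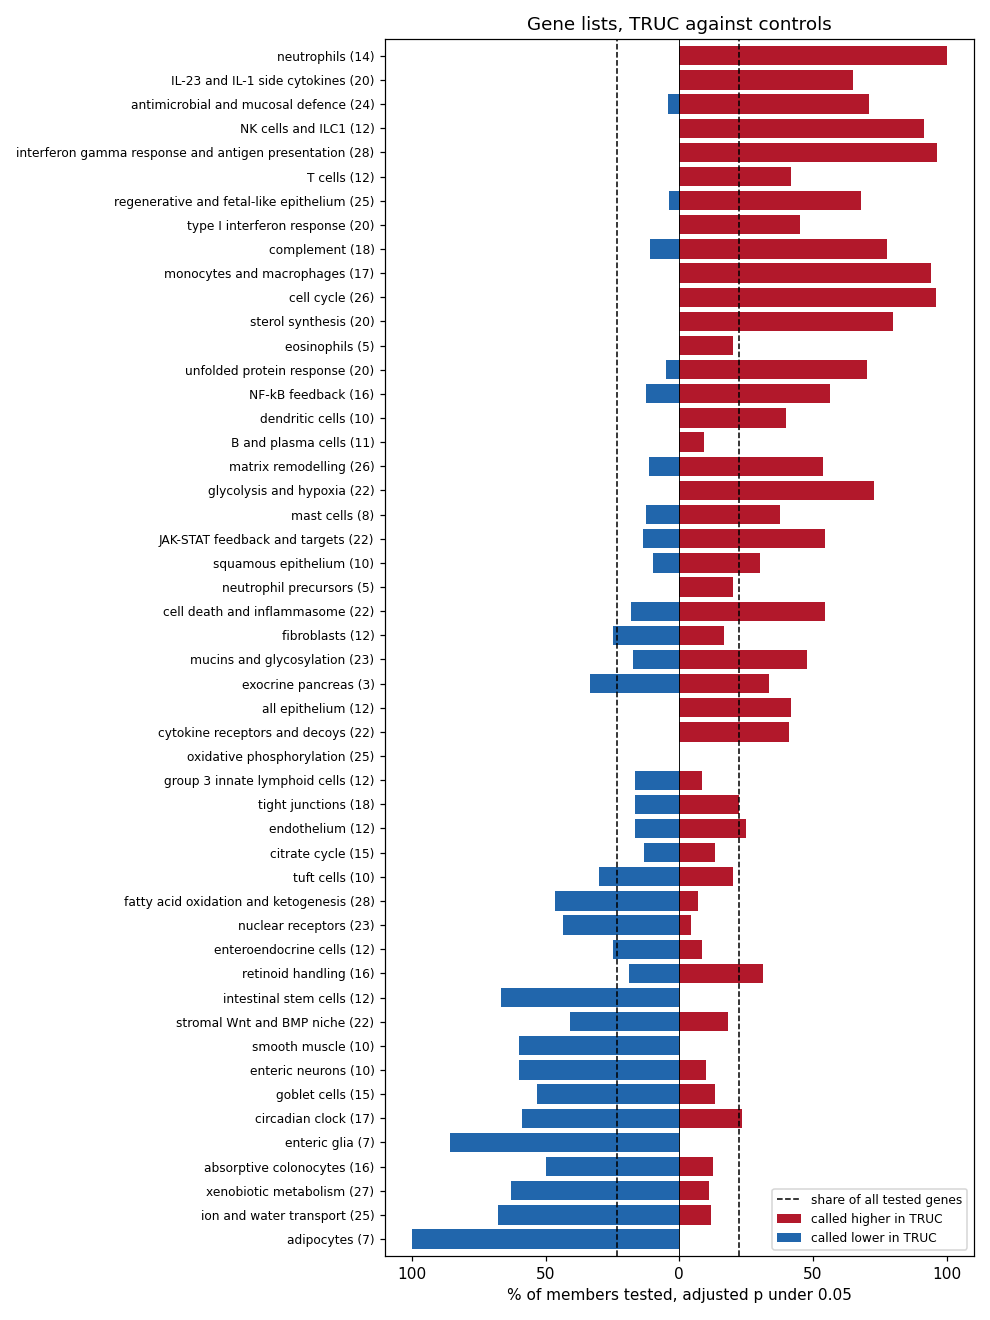
Members of each list past an adjusted p of 0.05, as a percentage of the members tested (number in brackets), with genes higher in TRUC to the right and lower to the left. Dashed lines mark the shares over all genes, 22.4% higher and 23.4% lower; all 14 neutrophil markers were higher and all 7 adipocyte markers lower.

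The 10 largest rises were taken among called genes without overlap, at 10 CPM or more in TRUC and over 3 counts in each control. Nos2, the inducible nitric oxide synthase, led them. It was at 642, 1143, 732 and 428 CPM in the TRUC mice and 1.15, 0.918 and 2.49 CPM in the controls, a log2 fold change of 8.90 (SE 1.14, edgeR adjusted p = 3.23e-06). Plet1, a surface protein of epithelial progenitors and wounded epithelium, stood at 338, 397, 369 and 328 CPM against 0.974, 0.689 and 0.604 CPM. Its 4 TRUC values lay close together, whereas those of Ido1, the enzyme that opens the tryptophan to kynurenine pathway, spread from 49.8 to 594 CPM over controls at 0.612 to 1.51 CPM. Lrg1, a secreted leucine-rich glycoprotein, rose by 8.00 on the log2 scale and was again even, at 906, 1044, 941 and 879 CPM. Ltf, the iron-binding lactoferrin, rose by 7.62 and Mfsd2a, a lysolipid transporter, by 7.08. The other rises of this set were Cxcl9 (7.01), Ccl7 (6.77), the goblet cell peptide Retnlb (6.68) and Clca4b (6.23), a member of the calcium-activated chloride channel regulator family. The limit on counts kept out genes nearly absent from the controls, such as Cxcl5 (12.66), S100a9 (10.75), Reg3b (12.32) and Ly6d (9.27), which are described below.

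Under the same limits, with over 3 counts in each TRUC mouse, the 10 largest falls were led by Dbp, a clock-controlled transcription factor, at 0.885, 1.25, 0.55 and 1.38 CPM in TRUC and 44.4, 30.5 and 50.8 CPM in the controls. Pck1, the gluconeogenic phosphoenolpyruvate carboxykinase, was at 8.85, 6.49, 7.15 and 12.5 CPM against 233, 296 and 209.8 CPM, a log2 fold change of -4.81 (SE 0.574, edgeR adjusted p = 1.42e-06). The separation of the groups in these genes was a condition of the choice. Cyp2f2, a cytochrome P450, fell by 24.8-fold, Dpyd, which breaks down uracil, by 21.2-fold and Sult1a1, a phenol sulphotransferase, by 20.5-fold. Fam189a2 (-4.66 on the log2 scale), Itih2 (-4.63), which binds hyaluronan, and the clock repressor Nr1d1 (-4.58) completed the set with Gm15772 and Gm8989. Gm8989 (-4.29) shares 78.6% of its 50-base windows with other genes, so its count is uncertain. Cyp2c55 (-9.30) and Afm (-6.18), nearly absent from TRUC, were kept out by the limit on counts.

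Measured as change in CPM per kilobase of exon among called genes without overlap, the rises were led by Clca4b. It went from 49.5, 129 and 44.2 CPM to 4993, 5823, 6186 and 5270.2 CPM. Pla2g2a, a secreted bactericidal phospholipase, went from 146 ± 65.1 to 1474 ± 90.5 CPM, and Ly6a, a surface marker of regenerating epithelium, from 181 ± 92.5 to 1517 ± 208 CPM (SD). S100a9, a subunit of neutrophil calprotectin, was next, and Dmbt1, a mucosal scavenger that binds bacteria, went from 2997 ± 435 to 8980.4 ± 451 CPM. Pla2g2a was at 0.821 ± 0.0726 CPM in the wild-type controls (SD), far below the Rag2-/- controls with the same strain label. The largest falls per kilobase were Sycn, a secretory granule protein, from 919 ± 36.4 to 81.1 ± 25.4 CPM, and Clca1, a protease of goblet cell mucus, from 4070 ± 565 to 258 ± 138 CPM. Zg16, a lectin of the mucus layer, went from 1937 ± 35.1 to 782 ± 199.9 CPM. The mitochondrial gene mt-Co1 fell by a log2 of only -0.32 and its adjusted p was 0.0395 in edgeR. That call was lost without any single mouse except TRUC mouse 4, and 51.1% of the windows of mt-Co1 lie in other genes.

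**Figure D2:**
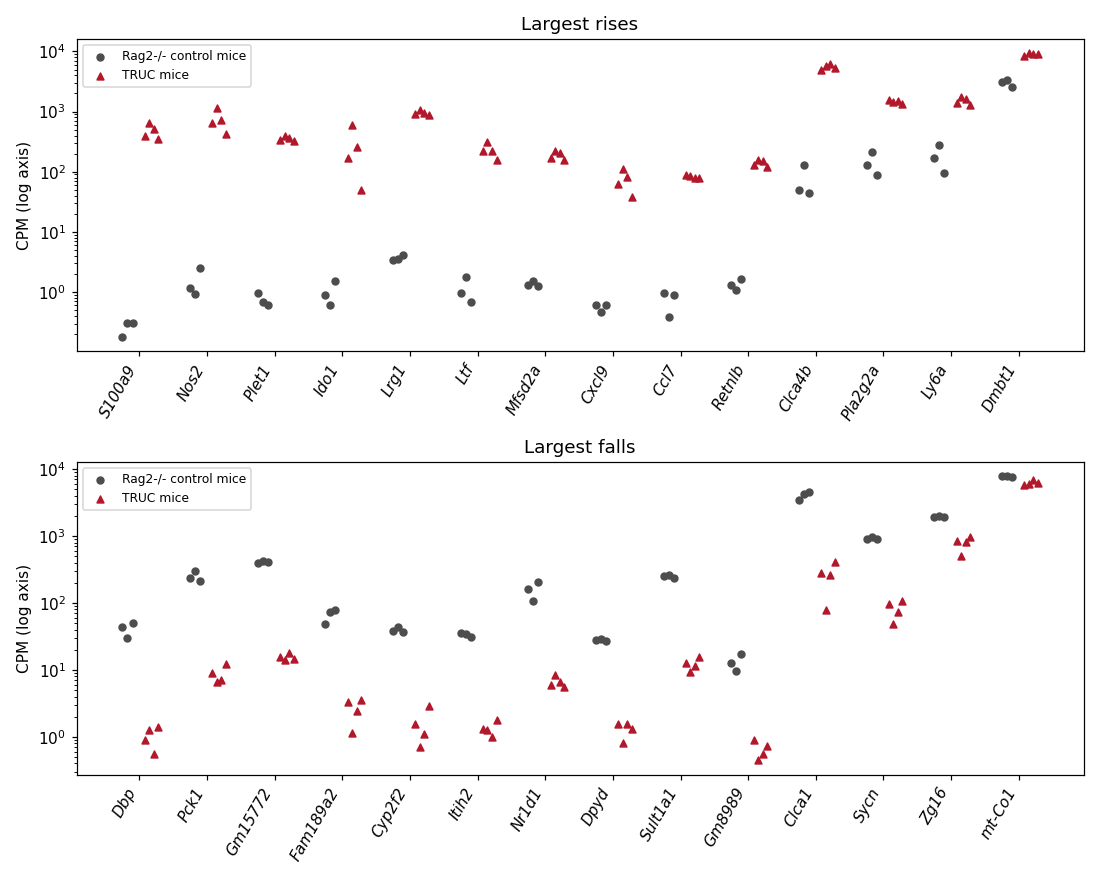
CPM of the named rises and falls in each mouse on a log axis, with the 3 Rag2-/- controls as grey circles and the 4 TRUC mice as red triangles. The genes plotted were chosen to be without overlap between the groups. Of the rises, Ido1 spread most among TRUC mice, from 49.8 to 594 CPM.

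Neutrophils are the short-lived granulocytes that enter the gut wall and lumen in acute inflammation. All 14 of their markers were called higher in TRUC, with a median log2 fold change of 5.14 against -0.03 over all genes. No marker overlapped between the groups, as in 4071 of all 4163 higher genes. With markers that had no count in the controls set at their bound, the median of the markers was 4.67. S100a8 was at 379, 518, 467 and 381 CPM in TRUC and 0.177, 0.383 and 0.302 CPM in the controls. S100a9, its partner in calprotectin, was at 395, 648, 508 and 347 CPM against 0.177, 0.306 and 0.302 CPM. The chemokine receptor Cxcr2 had no count in any control and was at least 66-fold higher in TRUC, against the floor of 3 counts per library. Csf3r, the receptor for granulocyte colony-stimulating factor, was at 34.7, 55.1, 40.7 and 17.9 CPM against 0.62, 0.306 and 1.13 CPM. Granule genes made mainly by precursors in bone marrow were not called, apart from Ltf, which epithelium also makes. In the 7 mice alone DESeq2 and edgeR each called 2 genes of the precursor list higher. Ngp was at 0.19 ± 0.115 CPM in TRUC and 0.208 ± 0.287 CPM in the controls, and Elane, Ctsg and Mpo did not pass the filter on low counts.

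Monocytes and macrophages clear debris and present antigen in the lamina propria. Here 16 of their 17 markers were higher and none lower, with a median log2 fold change of 1.41. Arg1, arginase of activated macrophages, went from 0.885, 0.995 and 0.453 CPM to 51, 77.4, 34.3 and 26.9 CPM. Cd14, the lipopolysaccharide co-receptor, was at 603 ± 59.5 against 80.7 ± 25.3 CPM and Ccr2, which draws monocytes from blood, at 45.1 ± 5.36 against 8.33 ± 0.739 CPM (SD). The complement subunit C1qa rose by a log2 of 1.41, the receptor Csf1r by 0.99 and the fractalkine receptor Cx3cr1 by 0.80. Cd163, a haemoglobin scavenger receptor, was not called (-0.63), but was called lower in the 7 mice alone (-0.62 in DESeq2 and -0.64 in edgeR). Against the wild-type controls 9 of the 17 were higher and 1 lower. Of 10 dendritic cell markers, 4 were higher, among them Itgax (1.64), Batf3 (1.83) and Clec9a (1.39).

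Natural killer cells and group 1 innate lymphoid cells kill target cells and make interferon gamma. Of their 12 markers 11 were higher, at low levels throughout. Gzma, a granzyme, was at 8.41, 9.7, 10.6 and 4.48 CPM in TRUC and 0.177, 0.459 and 0.68 CPM in the controls. Ncr1, the receptor NKp46, was at 5.97, 5.07, 6.87 and 4.15 CPM against 1.15, 1.22 and 1.66 CPM. Neither gene overlapped between the groups, and Eomes, the T-box factor related to T-bet, was at 1.07 ± 0.178 against 0.151 ± 0.262 CPM (SD). The summed level of the 12 genes was 22.1 to 43.1 CPM in TRUC and 2.48 to 6.72 CPM in the controls.

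Group 3 innate lymphoid cells make IL-17A and IL-22. Their markers gave 1 higher and 2 lower genes of 12, with a median log2 fold change of 0.11. The values of Il7r overlapped between the groups, at 3.03 ± 0.852 CPM in TRUC against 2.87 ± 1.74 CPM in the controls (SD), and so did those of Thy1, at 37.3 ± 1.72 against 30.4 ± 5.86 CPM. The higher gene was Il22, and the lower ones were Kit (-1.64) and Tox (-1.57), which mast cells, pacemaker cells and nerves also express. Against the wild-type controls 1 marker of this list was higher and 4 were lower. T cell markers summed to 10.4 to 14.9 CPM in TRUC and 4.44 to 9.52 CPM in the controls, and 5 of 12 were higher, with a median of 1.77, or 0.65 with uncounted genes at their bound. Cd3g was at 1.27 ± 0.369 against 0.152 ± 0.132 CPM and Cd8a at 0.806 ± 0.308 against 0.0252 ± 0.0436 CPM (SD), and none was higher against the wild-type controls, where 4 were lower. Without TRUC mouse 5 the number of higher T cell genes was 3. One of 11 B cell markers was higher, Cd22 (1.83), a call lost without control mouse 1 or 2 or TRUC mouse 3 or 5. Of 8 mast cell markers, 3 were higher, namely Hdc (4.60), which makes histamine, Mcpt1 (3.64) and Mcpt2 (3.64), and Gata2 was lower (-0.99). The mast cell markers Cpa3 and Tpsb2 were not called, at 0.567 ± 0.356 and 0.671 ± 0.213 CPM in TRUC.

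Among 20 cytokine genes of the IL-23, IL-1 and TNF side, 13 were higher and none lower, with a median log2 fold change of 4.02. With uncounted genes at their bound the median was 2.87. Without control mouse 1 the number was 8. Il1b was at 51.3, 63.8, 111 and 25.6 CPM in TRUC and 0.354, 1.3 and 1.21 CPM in the controls, a log2 fold change of 6.00 (SE 1.02, edgeR adjusted p = 7.12e-05). Tnf was at 45, 66.5, 35 and 18.7 CPM against 1.95, 0.459 and 0.755 CPM. The lowest TRUC mouse lay far above the highest control in both. Il1f9, an epithelial cytokine of the IL-36 group, had no count in the controls and was at least 49.3-fold higher. Il22 had 30, 21, 34 and 16 counts in TRUC against 2 in all controls, a ratio of 39.6 (95% counting interval 10.7 to 331), and shares 41.0% of its windows with other genes, most with its copy Iltifb. The call of Il22 was lost without control mouse 1, 2 or 4, at log2 fold changes of 4.54 to 7.72. Ifng had 20, 35, 29 and 11 counts against 1 in all controls, and its call was lost without any single control or without TRUC mouse 3 or 4, at 5.30 to 7.66.

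Several cytokines of the axis stayed near the detection limit. Il17a was at 0.295, 0.534, 0.458 and 0.57 CPM with no count in the controls, Il17f at 0.959, 0.712, 1.01 and 0.57 CPM and Il6 at 0.516, 0.801, 2.02 and 0.244 CPM, and none of the 3 was called. In the 7 mice alone all 3 were called higher, at 4.99, 2.62 and 4.97 on the log2 scale in DESeq2 and 5.52, 2.52 and 4.57 in edgeR. Il23a, the subunit particular to IL-23, was at 0.199 ± 0.261 against 0.106 ± 0.0415 CPM (SD), not called, while Il12b, the subunit shared with IL-12, rose from 0, 0.612 and 0.529 CPM to 3.61, 3.56, 3.76 and 1.79 CPM, a call lost without control mouse 1 (2.46). Il10 was at 0.109 ± 0.169 against 0.151 ± 0.2 CPM, not called. Lif, a cytokine of the IL-6 family, went from 4.04 ± 0.345 to 27.4 ± 3.56 CPM and Osm, another, from 0.211 ± 0.0295 to 2.31 ± 1.3 CPM.

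Of 22 receptors and decoys 9 were higher, none was lower and the median was 0.23. Tnfrsf1b, the inducible TNF receptor, was at 320.5, 394, 296 and 251 CPM in TRUC and 28.1, 28.4 and 30.4 CPM in the controls. Il18bp, the soluble inhibitor of IL-18, was at 62.2 ± 18.3 against 4.74 ± 0.868 CPM and Osmr, the oncostatin M receptor, at 68.9 ± 17.1 against 11.5 ± 2.16 CPM (SD). Il1r2, a decoy for IL-1 carried by neutrophils, rose by a log2 of 3.80. The subunits of the IL-22 receptor did not pass the test, with log2 fold changes of 0.23 for Il22ra1 and 0.22 for Il10rb. The soluble IL-22 inhibitor Il22ra2 was at 6.12, 0.801, 4.31 and 5.05 CPM in TRUC and 5.58, 6.28 and 10.7 CPM in the controls and was not called.

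Antimicrobial and mucosal defence genes gave 17 higher and 1 lower of 24, with a median of 3.38, or 2.99 with genes uncounted in the controls at their bound. Reg3b and Reg3g encode lectins that kill bacteria. Reg3b was at 785, 943, 669 and 1068 CPM in TRUC and 0.266, 0.0765 and 0.151 CPM in the controls, and Reg3g at 515, 695, 424 and 692 CPM against 0.443, 0.23 and 0.378 CPM. Neither was detected above 5 counts in any control. Lcn2, which binds bacterial siderophores, was at 60.3, 121, 90 and 69 CPM against 2.3, 2.37 and 3.55 CPM, a log2 fold change of 4.95 (SE 0.837). The dual oxidase Duox2 was at 722 ± 89.8 against 116 ± 17.8 CPM, its maturation factor Duoxa2 at 285 ± 55 against 12.8 ± 3.16 CPM and Nox1, an epithelial NADPH oxidase, at 124 ± 11.8 against 20.1 ± 1.02 CPM (SD). Duoxa2 shares 41.1% of its windows with other genes. Noxo1, the organiser subunit of Nox1, was the lower gene (-0.93), a call lost without control mouse 1 (-0.82), and 58.5% of its windows lie in other genes. Pigr, which carries IgA across the epithelium, was at 2680 ± 244 against 3559.6 ± 182 CPM and Lypd8, which holds flagellated bacteria off, at 4061 ± 195 against 3486 ± 269 CPM (SD), and neither was called. In the 7 mice alone Pigr was called lower (-0.40 in DESeq2 and -0.41 in edgeR) and Lypd8 higher (0.23 and 0.22), and upper quartile scaling also called Pigr lower (-0.52).

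STAT3 and NF-kB both switch on their own inhibitors. Of 22 JAK-STAT genes 12 were higher and 3 lower, with a median of 0.80. Socs3, the main feedback inhibitor of STAT3, was at 384, 422, 344 and 359 CPM in TRUC and 32.9, 31.3 and 9.59 CPM in the controls. Socs1 was at 88.5, 135, 83.9 and 61.2 CPM against 2.48, 3.29 and 2.79 CPM, without overlap, while Socs2 fell from 44.1 ± 4.42 to 13.7 ± 2.45 CPM and Cish from 8.76 ± 0.721 to 5.02 ± 1.36 CPM (SD). The call of Cish was lost without any single mouse except TRUC mouse 5, at -0.70 to -0.86, and with no filter on low counts (-0.78). Stat3 itself was not called (0.29), but was called higher in the 7 mice alone (0.30 in DESeq2 and 0.29 in edgeR). Of 16 NF-kB genes 9 were higher and 2 lower. Zc3h12a, an RNase that cuts inflammatory transcripts, rose by a log2 of 3.22, Nfkbiz by 2.45 and Tnfaip3 by 1.21. Relb (-0.80) and Tnip1 (-0.75) fell, and Nfkb1 (0.24) and Nfkb2 (0.19) were not called. DESeq2 on the 7 mice called Nfkb1 higher (0.26).

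Interferon gamma acts on guanylate-binding proteins, immunity-related GTPases and the machinery of antigen presentation. Of 28 genes of this response 27 were higher and none lower, with a median of 2.68. Of these, 5 that were picked after their values were seen are shown by sequence because they carry, upstream of their RefSeq start, the letters GAAA followed after 2 bases by GAAA again, on either strand, the core that interferon regulatory factors bind. Capitals mark these letters, in overlapping copies where the run is longer than 10 bases, and each stretch is given 5′ to 3′ on the strand of the gene in GRCm38.p6.
Igtp, chr11:58199477-58199555, strand +: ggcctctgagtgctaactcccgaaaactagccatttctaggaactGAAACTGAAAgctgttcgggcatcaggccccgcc
Irgm2, chr11:58214868-58214967, strand +: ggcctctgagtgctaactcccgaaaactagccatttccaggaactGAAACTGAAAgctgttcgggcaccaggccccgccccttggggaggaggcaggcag
Gbp3, chr3:142559954-142560043, strand +: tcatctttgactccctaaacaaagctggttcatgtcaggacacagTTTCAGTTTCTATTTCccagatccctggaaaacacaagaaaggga
Cxcl10, chr5:92349040-92349139, strand -: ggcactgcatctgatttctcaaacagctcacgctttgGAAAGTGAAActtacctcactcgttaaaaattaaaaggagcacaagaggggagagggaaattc
Socs1, chr16:10785565-10785664, strand -: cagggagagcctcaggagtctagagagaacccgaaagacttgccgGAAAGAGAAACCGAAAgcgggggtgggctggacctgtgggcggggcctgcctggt
The letters were found within 250 bases upstream of the start in 9 of the 20 genes of this list with an entry (45.0%), in 7 of 14 type I interferon genes (50.0%) and in 936 of all 27025 genes (3.46%). The letters TTCNNNGAA, which STAT dimers bind, were found in 7 of the 20 and in 8.13% of all genes. They were found in 2 of the 14 type I interferon genes (14.3%) and in 3 of 17 JAK-STAT genes with an entry (17.6%). A match is a description of these letters and not evidence of binding.

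The 5 genes were called higher, with Gbp3 the least firm, since its call was lost without control mouse 1, 2 or 4 or TRUC mouse 3, at 1.56 to 2.04. Igtp was at 203, 398, 202 and 95.6 CPM in TRUC and 15, 9.18 and 12.4 CPM in the controls, Irgm2 at 140.2, 212, 122 and 79.7 CPM against 24.1, 19.9 and 21.1 CPM, and Gbp3 at 90.5, 149.5, 84.8 and 47.9 CPM against 30.2, 24.9 and 20.5 CPM. Cxcl10, a chemokine for T and NK cells, was at 30.7, 48.2, 36.7 and 17.2 CPM against 0.354, 0.383 and 1.36 CPM. Antigen presentation rose with them. Ciita, the master regulator of MHC class II, went from 4.53 ± 1.45 to 39.9 ± 12 CPM, Cd74, the class II invariant chain, from 109 ± 44.5 to 702 ± 54.2 CPM and H2-Ab1 from 63.8 ± 21.1 to 337 ± 25.6 CPM (SD). On the class I side Nlrc5, its regulator, rose by a log2 of 4.63, Tap1, the peptide transporter, by 3.15 and the immunoproteasome subunits Psmb8 and Psmb9 by 2.38 and 2.39. The summed level of the 28 genes spread from 3629 to 7506 CPM in TRUC and from 1099 to 1162 CPM in the controls. Gbp2 was the member not called, at 214, 334, 203 and 91.1 CPM against 71.8, 78.6 and 40.9 CPM, and was called higher in the 7 mice alone (1.74 in DESeq2 and 1.73 in edgeR).

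The type I interferon list was less uniform, with 9 of 20 higher, none lower and a median of 1.49. Ifit2 was at 116, 278, 155 and 72.5 CPM in TRUC and 14.6, 9.87 and 12.8 CPM in the controls. Irf7, the amplifier of the type I response, was at 130.4, 196, 105 and 82.6 CPM against 129.5, 116 and 106 CPM and was not called. This count depended on the fit, with 16 higher in DESeq2 and 15 in edgeR when the 7 mice were fitted alone, 18 with the replicate block and 18 against the wild-type controls.

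Ion and water transport is the main work of surface colonocytes. Of 25 genes 17 were lower and 3 higher, with a median of -2.02. Slc26a3, the apical chloride and bicarbonate exchanger, was at 212, 139.8, 322 and 427 CPM in TRUC and 1059.5, 1393 and 1443 CPM in the controls, a log2 fold change of -2.24 (SE 0.54, edgeR adjusted p = 0.00181). Car1, a carbonic anhydrase, was at 75.5, 57, 80.5 and 113 CPM against 941, 956 and 1264 CPM, and Slc4a4, the basolateral sodium bicarbonate cotransporter, at 22.5, 10.3, 13.7 and 16 CPM against 248, 206 and 284 CPM. Every control exceeded every TRUC mouse in the 3 genes. The water channel Aqp8 was at 104 ± 75.9 against 540.5 ± 64.3 CPM (SD). Electrogenic sodium uptake runs through the epithelial sodium channel, and its subunits Scnn1b and Scnn1g fell by log2 values of -2.31 and -3.45, while Scnn1a was not called (-0.49), though it was in the 7 mice alone (-0.48 in DESeq2 and -0.49 in edgeR). Sgk1 (-2.96), Hsd11b2 (-2.11) and Nr3c2 (-0.94), the kinase, cortisol-inactivating enzyme and receptor of the aldosterone response, were all lower. The chloride channels Cftr (-2.02) and Best2 (-2.79) were lower as well.

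The 3 higher genes went the other way. Aqp4, a water channel, was at 806, 896, 987 and 937 CPM in TRUC and 74.5, 130.1 and 114 CPM in the controls. Clca4a was at 511 ± 65.8 against 121 ± 39.5 CPM (SD), and 41.0% of its windows and 24.8% of those of Clca4b lie in other genes, so the reads of this family may be divided unevenly. Slc9a3, the apical sodium and proton exchanger (0.42), Slc12a2 (-0.17) and Atp12a (1.49) were not called. Atp12a was called higher in the 7 mice alone (1.51 in DESeq2 and 1.49 in edgeR), and Slc9a3 against the wild-type controls (4.18). Epcam and Cdh1, which all epithelial cells make, were not called, with Epcam at 1711, 1822, 1809.5 and 1670.5 CPM in TRUC and 1688, 1814 and 1556 CPM in the controls and Cdh1, E-cadherin, at 1186 ± 65.2 against 1277 ± 156 CPM (SD). The 12 pan-epithelial genes summed to 16275 to 17537 CPM in TRUC and 12769 to 13954 CPM in the controls, and 5 were higher, led by Krt20 (1.45). Without control mouse 1 or 4 the number higher was 3, and against the wild-type controls it was 10. Of 16 markers of absorptive colonocytes 8 were lower and 2 higher, with a median of -1.49. The metalloprotease Mep1a was at 25.9 ± 12.8 against 310.3 ± 5.78 CPM and the hormone Guca2a at 63.4 ± 6.73 against 322 ± 83.3 CPM (SD), while Tmigd1 (3.88) and Mall (0.91) were higher.

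**Figure D3:**
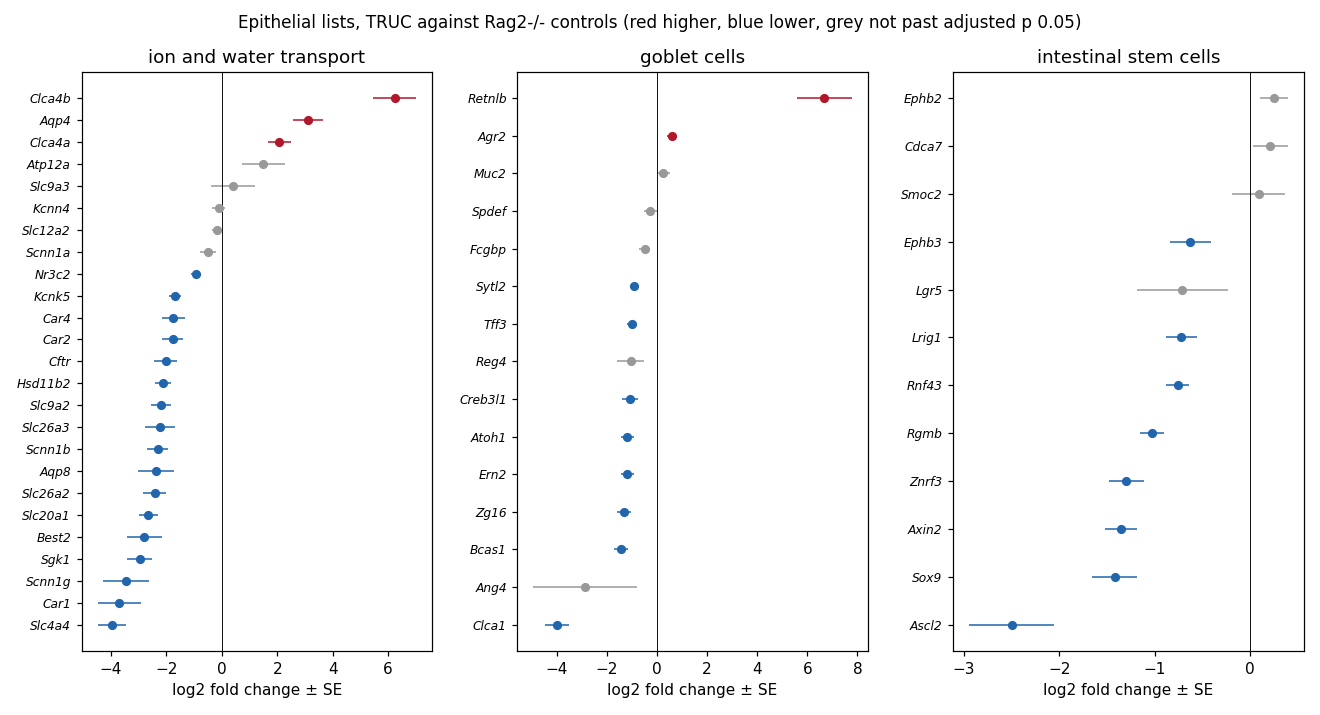
Log2 fold change in TRUC against the Rag2-/- controls with its standard error, for every tested member of the ion and water transport, goblet cell and intestinal stem cell lists. Red marks genes called higher, blue lower and grey neither; 17 of 25, 8 of 15 and 8 of 12 genes are blue.

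Goblet cell genes gave 8 lower and 2 higher of 15, with a median of -1.04. Clca1 was at 283, 77.9, 258 and 414 CPM in TRUC and 3430.2, 4278 and 4502 CPM in the controls, a log2 fold change of -3.98 (SE 0.46, edgeR adjusted p = 9.84e-07). Zg16 was at 856, 499, 808 and 966 CPM against 1926, 1977 and 1909.9 CPM and Tff3, the trefoil peptide of mucus, at 350.0, 348, 407 and 393 CPM against 734, 759.6 and 753 CPM. Muc2, the gel-forming mucin that goblet cells are known for, was not called, at 1205, 1281, 835 and 1083 CPM against 966, 822 and 978 CPM. Retnlb, which goblet cells secrete in defence, was at 132, 154, 153 and 122 CPM against 1.33, 1.07 and 1.66 CPM. Atoh1, the factor that commits cells to the secretory lineage, was lower (-1.17), and Spdef, which acts after it, was not called (-0.26). Against the wild-type controls the number of lower genes was 4 and the median -0.32.

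Transmembrane mucins and glycosylation enzymes gave 11 higher and 4 lower of 23. Fut2, which adds fucose to epithelial glycans, was at 1145, 1272, 1175 and 1147 CPM in TRUC and 189, 206 and 126 CPM in the controls. Muc1 (1.64), Muc4 (1.80) and Muc20 (1.91) were higher and Muc3 (-0.77) and Gcnt3 (-1.15), a branching enzyme of mucin glycans, lower. Of 18 tight junction genes 4 were higher and 3 lower, with a median of 0.02, beside 22.4% higher and 23.4% lower over all genes tested. Cldn4 rose by a log2 of 1.12 and Cldn7 by 0.60, occludin (Ocln) changed by -0.99 and was lower, and the pore-forming Cldn2 was at 159, 154, 193 and 164 CPM against 259.8, 246 and 189 CPM, not called here but lower in the 7 mice alone (-0.45 in DESeq2 and -0.47 in edgeR). The call of Cldn4 was lost without control mouse 1 or 4 or TRUC mouse 2, 3 or 4, at 0.97 to 1.13. Without control mouse 1 or 4 the number of higher tight junction genes was 1, and without TRUC mouse 2, 3 or 4 it was 2.

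Crypt stem cells depend on Wnt signals. Of 12 stem cell and Wnt target genes 8 were lower and none higher, with a median of -0.74. Ascl2, a stem cell factor, was at 1.99, 1.25, 1.65 and 2.44 CPM in TRUC and 8.77, 11.9 and 10.7 CPM in the controls. Axin2, a direct Wnt target, was at 14.2 ± 2.39 against 36.4 ± 2.6 CPM and Sox9 at 29.4 ± 3.53 against 78.7 ± 37.7 CPM (SD). Lgr5, the best known marker, was at 4.57, 3.91, 3.94 and 4.88 CPM against 8.06, 6.66 and 6.65 CPM and was not called (-0.71). Its groups did not overlap, and it was called lower in the 7 mice alone (-0.70 in DESeq2 and -0.71 in edgeR) and against the wild-type controls (-1.50). Regenerative and fetal-like genes moved in the opposite direction, with 17 of 25 higher and 1 lower. Besides Plet1 and Ly6a they included Anxa1 (845 ± 145 against 282 ± 15.2 CPM, SD), Plaur (3.43 on the log2 scale) and the EGF receptor ligands Hbegf (1.89) and Areg (1.65), whose call was lost without control mouse 1 (1.39) or 4 (1.33). Sprr2h had no count in the controls and was at least 77-fold higher. Clu, which marks revival stem cells, was at 70.6, 45.8, 51.2 and 46.9 CPM against 68.6, 78.5 and 128 CPM, with overlap, and was not called. It was called lower in the 7 mice alone (-0.76 in DESeq2 and -0.77 in edgeR), with the replicate block (-0.72) and against the wild-type controls (-1.46).

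Proliferation genes rose while stem cell genes fell. Of 26 cell cycle genes 25 were higher and none lower, with a median of 1.33, and Plk1 alone was not called. Mki67 was at 282, 284, 302 and 278 CPM in TRUC and 145, 136 and 123 CPM in the controls. Top2a was at 355 ± 35.4 against 119 ± 16.3 CPM and Rrm2, the ribonucleotide reductase subunit, at 73.2 ± 6.19 against 12.6 ± 1.76 CPM (SD). Groups did not overlap in any of the 25, as was the case in 4071 of all 4163 higher genes.

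Enteroendocrine markers gave 3 lower genes of 12, namely Chga (-1.30), Scgn (-1.55) and Sst (-1.66), and 1 higher, Cck (2.84). Over all genes tested, 23.4% were lower and 22.4% higher. The number of lower enteroendocrine genes was 8 in DESeq2 on the 7 mice and 6 with the replicate block. The median of this list was -0.50, but 0.30 against the wild-type controls, where 3 genes were higher and 3 lower. Of 10 tuft cell markers, 2 were higher, among them Avil (1.64), Ptgs1, Chat and Pou2f3 were lower, and Dclk1 was not called (0.12). In the fits without control mouse 4, TRUC mouse 3 or TRUC mouse 4 no tuft cell marker was lower. Squamous epithelial genes gave 3 higher and 1 lower of 10, where 22.4% and 23.4% of all genes tested were higher and lower. Krt13 was at 38.6, 45.9, 22.9 and 27.8 CPM in TRUC and 1.86, 0.918 and 2.49 CPM in the controls, while Krt5, Krt14 and Krt4 were not called. The number higher was 5 in DESeq2 and in edgeR on the 7 mice and with the replicate block.

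Enzymes and pumps of drug metabolism make foreign compounds soluble and export them. Of 27 tested genes 17 were lower and 3 higher, with a median of -1.64. Cyp2c55, a cytochrome P450 abundant in healthy colon, was at 0.0737, 0.178, 0.0916 and 0.57 CPM in TRUC and 138, 142 and 174 CPM in the controls. Abcb1a, an efflux pump, was at 39 ± 9.79 against 501 ± 28 CPM and Sult1a1 at 12.2 ± 2.67 against 250.5 ± 14.3 CPM (SD). Among nuclear receptors, which sense lipids, bile acids and xenobiotics, 10 of 23 were lower and 1 higher. Vdr, the vitamin D receptor, was at 93.1, 68.2, 89.8 and 139 CPM against 354, 397 and 254 CPM. Nr5a2 (-1.93), Ppara (-2.82) and the pregnane X receptor Nr1i2 (-0.58) were lower, Nr1h4, the bile acid receptor FXR, was higher (0.74), and Hnf4a (-0.25), Pparg (0.43) and Ppard (0.01) were not called. In the 7 mice alone DESeq2 called Hnf4a lower (-0.23) and Pparg higher (0.45), as edgeR did (-0.25 and 0.43). The call of Nr1i2 was lost without control mouse 1 or 2 or TRUC mouse 3 (-0.52 to -0.54) and that of Nr1h4 without control mouse 2 or 4 (0.72 and 0.74). In the handling of retinoids Dhrs9 (5.21), Aldh1a3 (3.35) and Rdh10 (1.85) rose and Adh1 fell (-1.63), with 5 higher and 3 lower of 16, and the call of Adh1 was lost without control mouse 1 (-1.59) or TRUC mouse 3 (-1.56).

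Colonocytes burn fatty acids such as butyrate. In fatty acid oxidation and ketogenesis 13 of 28 genes were lower and 2 higher, with a median of -0.43. The short-chain and medium-chain enzymes Acads (-0.80) and Acadm (-0.84) and the butyrate carriers Slc16a1 (-0.65) and Slc5a8 (-0.70) fell. The call of Acads was lost without control mouse 2 or 4 or TRUC mouse 2 or 3, at -0.73 to -0.78. Against the wild-type controls the list gave 7 lower and 7 higher genes, with a median of -0.07. Oxidative phosphorylation showed no called gene among 25 and a median of 0.16. At an unadjusted p under 0.05 the number of higher genes was 6 and of lower genes 0, DESeq2 on the 7 mice called 11 higher, and 19 were higher against the wild-type controls. The citrate cycle gave 2 genes in each direction among 15, and 1 higher gene without any single control or without TRUC mouse 4. Against the wild-type controls it gave 5 higher and 1 lower.

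Glycolytic and hypoxia genes gave 16 higher and none lower of 22, with a median of 0.94. Hk2, the inducible hexokinase, was at 1314, 1449, 1377 and 1216 CPM in TRUC and 138, 119 and 175 CPM in the controls. Pfkfb3, which speeds glycolysis, rose by a log2 of 3.70, the lactate exporter Slc16a3 by 2.85 and Hif1a by 1.64, and Vegfa was not called (0.29) except by DESeq2 on the 7 mice (0.30). Sterol synthesis was likewise raised, with 16 of 20 higher, none lower and a median of 1.13. Sqle, which makes squalene epoxide, was at 256, 336, 324 and 294 CPM against 101, 119 and 118 CPM, without overlap. Of 20 genes of the unfolded protein response 14 were higher and 1 lower. Hspa5, the chaperone BiP, was at 1285, 1599, 1695 and 1362 CPM against 486, 509.7 and 709 CPM, and Ern2, the goblet cell sensor of this response, was the lower gene (-1.18).

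In cell death and inflammasome genes 12 of 22 were higher and 4 lower. Ripk3 and Mlkl drive necroptosis. Ripk3 was at 315, 426, 341 and 259 CPM in TRUC and 25.2, 27.8 and 24.2 CPM in the controls, and Mlkl at 118 ± 27.8 against 28.4 ± 4.21 CPM (SD). Nlrp3 (3.51), Casp4 (1.31) and Gsdmd (1.20) were higher. The lower genes were Nlrp6 (-1.06), an epithelial sensor, and Gsdmc2, Gsdmc3 and Gsdmc4, which share between 39.0% and 51.3% of their windows with other genes. Of 18 complement genes 14 were higher and 2 lower. C3 was at 292, 287, 216 and 248 CPM against 44.1, 124 and 113 CPM, a call lost without control mouse 1 (1.14). Cfd, also made by fat cells, was lower (-2.13), a call lost without control mouse 2 or 4 or TRUC mouse 2, 3 or 4, at -1.78 to -2.12.

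Matrix remodelling genes gave 14 higher and 3 lower of 26. Mmp10 was at 18.7, 40, 25.6 and 10.7 CPM in TRUC and 0.62, 0.612 and 1.06 CPM in the controls, Mmp3 rose by a log2 of 3.30 and Mmp13 by 2.93, and Mmp7 had no count in the controls and was at least 22.6-fold higher. Col1a1, a collagen gene of fibroblasts, was not called, at 224 ± 75.5 against 137 ± 20.6 CPM (SD), but was called higher in the 7 mice alone (0.72 in DESeq2 and 0.71 in edgeR). Among the 22 stromal Wnt and BMP genes 9 were lower and 4 higher. Bmp3 (-2.07), Nog (-2.06) and Wnt2b (-1.38) fell, Grem1 (0.95) and Wnt5a (0.77) rose, and Rspo3 was not called (-0.61). The call of Grem1 was lost without control mouse 1, 2 or 4, at 0.90 to 1.01. Rspo3 was called lower in the 7 mice alone (-0.59 in DESeq2 and -0.60 in edgeR), with upper quartile scaling (-0.71), with edgeR's own filter on low counts (-0.63) and without TRUC mouse 2 (-0.74).

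Most markers of the deeper wall were lower in TRUC. Of 10 smooth muscle genes 6 were lower and none higher, with Myh11 at 1307, 912, 762 and 1025 CPM in TRUC and 2134, 2325 and 2429.8 CPM in the controls. Of 7 enteric glial genes 6 were lower and none higher. Of 10 neuronal genes 6 were lower and 1 higher, the receptor Ret (1.38), which other cells also express. Without TRUC mouse 4 the number of lower neuronal genes was 3. All 7 adipocyte markers were lower, and they varied widely among the controls. Adipoq was at 0.516, 1.69, 1.83 and 2.12 CPM in TRUC and 3.01, 14.9 and 25.4 CPM in the controls, and the summed level of the 7 genes was 21.9 to 42.6 CPM against 49.9 to 178 CPM. Without control mouse 4 the number lower was 3, and against the wild-type controls it was 1. Endothelium gave 3 higher and 2 lower genes of 12, where 22.4% and 23.4% of all genes tested were higher and lower. The adhesion molecules Selp (1.46) and Madcam1 (1.48), which leukocytes bind, rose and Lyve1 (-1.24) fell, and Pecam1 was not called (-0.18). How the amount of muscle or attached fat in each sample bears on the lists above was not tested.

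The circadian clock is a feedback loop in which the repressors Nr1d1 and Nr1d2 and the D-box factors Dbp, Tef and Hlf peak in one phase and Arntl, Npas2, Cry1 and Nfil3 in the other. Of 17 clock genes 10 were lower and 4 higher in TRUC. Nr1d1 was at 5.97, 8.45, 6.51 and 5.62 CPM in TRUC and 164, 108 and 204 CPM in the controls, Tef at 6.05, 7.03, 4.12 and 5.21 CPM against 81.9, 69.3 and 112 CPM and Per3 at 3.47, 3.38, 2.29 and 5.46 CPM against 41.7, 27.6 and 29.3 CPM. The 4 higher genes were Arntl (1.05), Npas2 (0.60), Cry1 (2.55) and Nfil3 (2.89). The call of Npas2 was lost without control mouse 1 or 4 or TRUC mouse 2, 3 or 5, at 0.52 to 0.63, and with upper quartile scaling (0.50). Against the wild-type controls 8 clock genes were lower and 2 higher, and Arntl (-0.63) and Npas2 (-0.05) changed sign. Each of the 14 called genes was free of overlap between the groups. So were 4071 of all 4163 higher genes and 4158 of all 4361 lower genes. The hour of sampling is not in the labels, and its part in these values was not tested. Several genes named above among the falls, such as Dbp and Nr1d1, belong to this list.

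**Figure D4:**
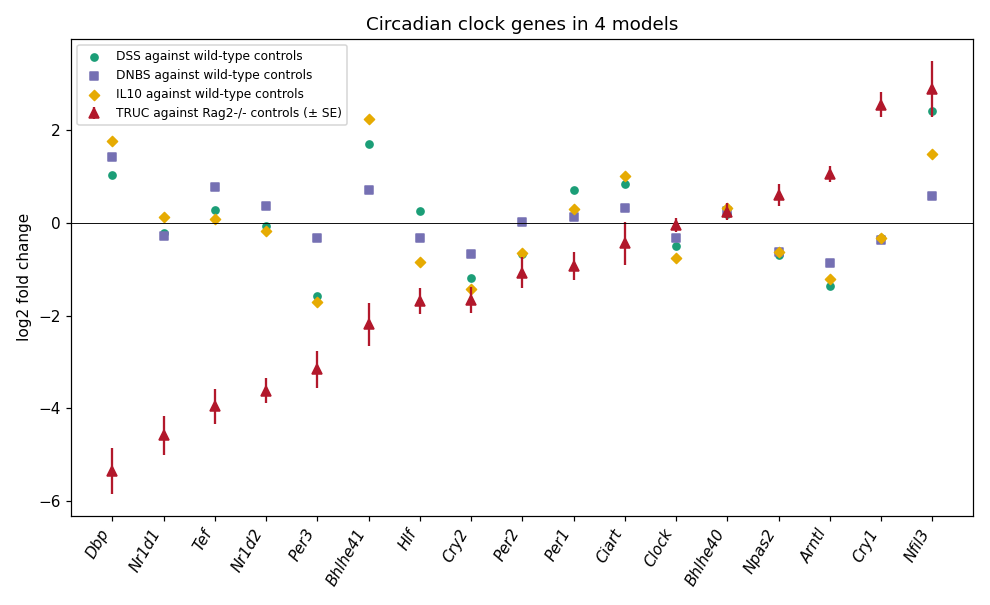
Log2 fold change of 17 clock genes in TRUC against the Rag2-/- controls (red triangles, with standard errors) and in DSS, DNBS and IL10 against their shared wild-type controls. Dbp lies at -5.35 in TRUC and at 1.04, 1.42 and 1.77 in DSS, DNBS and IL10.

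To see where TRUC differed from other colitis, its change was compared in 1 model with the mean change in DSS, DNBS and IL10, which share no mouse with it. The difference passed an adjusted p of 0.05 in edgeR's quasi-likelihood test for 229 genes that changed to a higher value in TRUC (1.23% of 18616) and 377 that changed to a lower one (2.03%). These numbers were small enough to depend on single mice. They fell to 75 and 150 without control mouse 4, to 91 and 163 without control mouse 2, to 106 and 191 without TRUC mouse 3 and to 114 and 188 without TRUC mouse 4. Without control mouse 1 they were 125 and 259. The DSS, DNBS and IL10 values below rest on the same wild-type controls and are not independent of each other.

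The clock held the largest share of differing genes among the lists, with 3 higher and 7 lower of 17. Dbp changed by -5.35 in TRUC and by 1.04, 1.42 and 1.77 in DSS, DNBS and IL10, a difference of -6.76 (SE 0.661, edgeR adjusted p = 7.37e-07). The controls lay far apart in Dbp, at 41.9 ± 10.4 CPM in the Rag2-/- mice and 3.67 ± 1.78 CPM in the wild-type mice (SD, n = 3 each), and against the wild-type controls the log2 fold change of TRUC was -1.82. Among epithelial lists, goblet cells had 4 genes lower than in the other models, and Clca1 was one of them, with a difference of -3.63 (SE 0.6, edgeR adjusted p = 0.00114). Enteroendocrine cells had 4, stem cells 3 and ion and water transport 3, the last being Sgk1, Slc9a2 and Hsd11b2. Against the wild-type controls the TRUC median of the enteroendocrine list was 0.30. Axin2 changed by -1.35 in TRUC and by -0.41, 0.01 and -0.18 in DSS, DNBS and IL10. Genes whose change was higher in TRUC included E2f2 (difference 2.53) and Rrm2 (1.62) of the cell cycle and Hk2 (1.58) and Pfkp (0.80) of glycolysis. None of the neutrophil, interferon gamma, antimicrobial or cytokine lists had a gene that passed this test, which does not show that they changed alike. The SE of the difference, derived from the test statistic, was 2.95 for S100a9 and 10.1 for Reg3b on the log2 scale. Both genes had few counts in the Rag2-/- controls, so these values are rough.

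Over all genes at 10 CPM or more in 1 of the groups compared, the highest differences were those of Gm10095, Cxcl5, Ly6d, Rpl26 and Pira2, and the lowest those of Gm11430, Dbp, Upk3b, Gm15772 and Afm. Cxcl5, a chemokine for neutrophils, was at 585, 709, 719.5 and 317 CPM in TRUC with 3 counts in all controls, a ratio of 7219 (95% counting interval 2469.9 to 35007), and changed by 5.84, 3.60 and 5.02 in DSS, DNBS and IL10. The wild-type controls held more of it, at 3.05 ± 0.262 CPM (SD, n = 3). Ly6d, a surface protein of progenitors and stratified epithelium, was at 37.7, 57.7, 38.6 and 22.4 CPM in TRUC with 2 counts in all controls. The wild-type controls held more of Ly6d as well, at 6.24 ± 1.02 CPM (SD, n = 3). DSS, DNBS and IL10 were at 21.3, 16.7 and 33.25 CPM of Ly6d. Pira2 was at 12.8, 7.47, 9.26 and 11.6 CPM against 0.0885, 0.153 and 0.227 CPM and shares 93% of its windows with other genes, most with Pirb. Afm, a vitamin E binding protein, was at 0.147, 0.089, 0.458 and 0.326 CPM against 21.7, 20.5 and 14.5 CPM. The wild-type controls held less of Afm than the Rag2-/- controls, at 1.18 ± 0.161 CPM (SD, n = 3). DSS, DNBS and IL10 were at 0.139, 0.91 and 0.41 CPM of Afm, near the level of TRUC. Upk3b, a marker of mesothelium, was at 0.295, 0, 0 and 0.488 CPM in TRUC and uneven among the controls, at 0.177, 9.87 and 5.97 CPM. The difference of Upk3b was no longer called without control mouse 2 (-5.70) or 4 (-6.40), without TRUC mouse 3 (-6.11) or 4 (-6.12), or against IL10 alone (-4.81). Those of Cxcl5 (6.30) and Ly6d (5.58) were not called against the mean change of all 5 other models.

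Others of the 10 rested on 1 library or on absence from a group. Gm10095, which shares 79.5% of its windows with other genes, was at 0, 0.178, 66.5 and 0 CPM in TRUC, and the wild-type controls behind the other changes were uneven too, with 1 mouse at 63.3 CPM (951 counts) and the lowest at 1 count. Its fitted change was 6.40 in TRUC and -6.07 on average in the other models. Both its call as a rise and the call of its difference were lost without control mouse 1, 2 or 4 or TRUC mouse 4. Gm11430, annotated as a pseudogene on chromosome 11, had no count in any TRUC mouse and 53, 108 and 92 counts in the controls, and was at least 26.4-fold lower. Every other group of the series expressed it, with a lowest mouse of 48 counts. Rpl26 and Gm15772 divided the groups as described above.

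**Figure D5:**
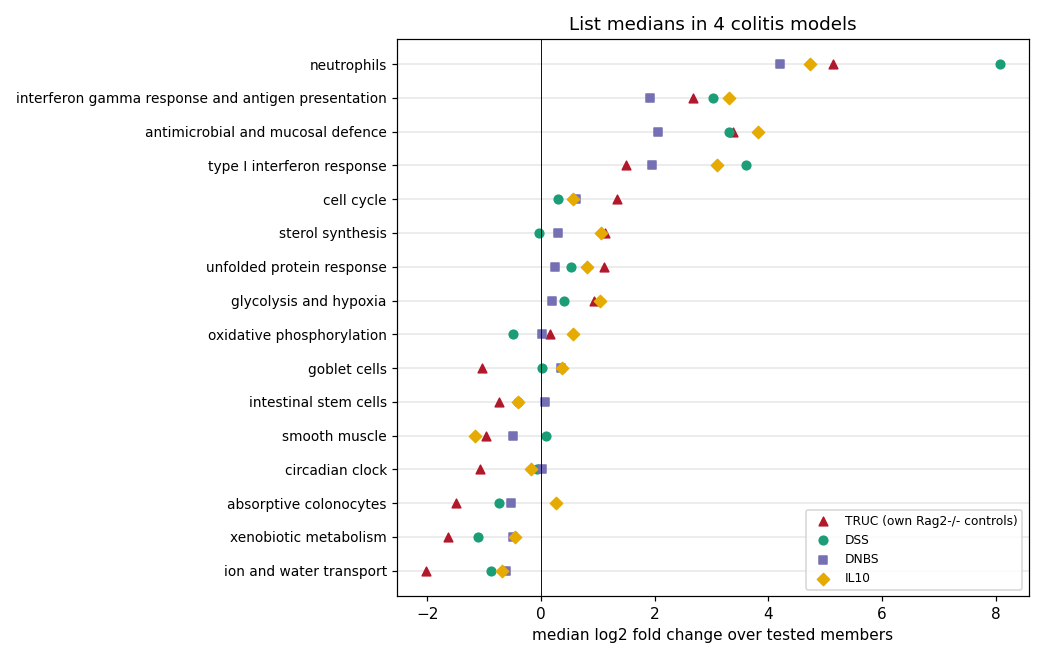
Median log2 fold change over the tested members of 16 lists in TRUC (triangles, own Rag2-/- controls) and in DSS, DNBS and IL10 (shared wild-type controls). The TRUC median of ion and water transport lies at -2.02 and those of DSS, DNBS and IL10 at -0.88, -0.62 and -0.69; medians carry no test.

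The medians of whole lists are given as descriptions. Neutrophil markers had a median log2 fold change of 5.14 in TRUC, 8.07 in DSS, 4.21 in DNBS and 4.73 in IL10. The cell cycle list stood at 1.33 in TRUC and at 0.30, 0.62 and 0.57 in DSS, DNBS and IL10, and sterol synthesis at 1.13 against -0.03, 0.30 and 1.06. Goblet cell genes stood at -1.04 in TRUC against 0.02, 0.35 and 0.37. Medians over all genes were 0.02, 0.01 and -0.01 in DSS, DNBS and IL10.

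Genes close to a deleted locus can differ between lines because they are inherited with it. Tbx21 lies on chromosome 11 of GRCm38, from 97098071 to 97115331. Within 5 Mb on each side 227 genes were tested and 51.5% were called in either direction, and within 10 Mb 49.0% of 355 genes, against 45.8% over all genes. The median size of the log2 fold change was 0.65 in the narrower window, 0.61 in the wider and 0.51 over all genes. The difference from the other models was called for 14 of the 227 genes (6.17%), for 23 of the 355 (6.48%) and for 3.26% of all genes. Nr1d1, one of the 10 largest falls, lies inside the narrower window, from 98767932 to 98775333. Gm11430, from 83695275, and Nos2, from 78920787, lie on the same chromosome but outside both windows.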

How the data were processed

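RNA of whole colon was sequenced by the authors after poly-T selection. Per the labels, the processing notes name Trimmomatic, HISAT2, HTSeq and GRCm38, with no versions. The deposited table holds raw read counts per gene for 29 mice, not normalized, and its 92 spike-in rows were at 0. Counts were tested with edgeR 4.0.16 in R 4.3.3, by the quasi-likelihood test with TMM scaling on all 9 groups in 1 model, for the 18616 genes whose mean count reached 3, and p-values were adjusted by Benjamini-Hochberg. The threshold was an adjusted p of 0.05. The difference of changes was a contrast of the same model. Each SE of a log2 fold change was taken as its size divided by the square root of the test's F statistic. Such an SE is rough for genes with few counts in a group. On simulated counts of 18485 genes the main comparison recovered 63 of 100 genes changed 2-fold and 91 of 100 changed 4-fold, with 7 others called. The changed genes were drawn from those at a mean of 1 CPM or more, and all others were left unchanged. In the data 45.8% of genes were called. The simulated figures therefore do not carry over to genes below 1 CPM or to so many changes. Shared windows are the percentage of 50-base stretches of a gene's exons that other transcripts also hold. Promoter sequences came from RefSeq in GRCm38.p6.

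The 7 mice and the lists were chosen with earlier results of these data known. Named genes were the 10 largest rises and falls without overlap at 10 CPM or more in the higher group and over 3 counts in each mouse of the lower, the 5 largest in each direction per kilobase, the 5 highest and lowest differences of changes, and members of lists by size or role. Alternatives were DESeq2 1.42.0, other scaling, filters, thresholds, models compared, the replicate block and leaving out each mouse. The wild-type controls and the same 4 mice without the block were added after seeing the data. The anti-CD40, TCT and Rag1-/- groups entered the model for its estimate of spread. A few genes are not reported here.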

Additional observations from a re-analysis of the deposited data

Results flagged for a closer look

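In 9 of 251 values tested over the 4 TRUC mice, 1 mouse stood apart from the other 3 by Dixon's criterion, where chance gives about 1 in 20. The values were 66.5 CPM of Gm10095, 609.5 CPM of Clca4a, 37.9 CPM of Sgk1 and 104.6 CPM of Arl2bp in TRUC mouse 4. In TRUC mouse 5 they were 28.4 CPM of Best2, 141.7 CPM of C1qa and 1.79 CPM of Il12b. In TRUC mouse 3 they were 10.7 CPM of Gsdmc4 and 0.178 CPM of Cd3e.

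The change in TRUC differed from the mean change in DSS, DNBS and IL10, by edgeR's test of the difference itself, in 10 genes named by rule. The log2 differences were 12.47 for Gm10095, 7.84 for Cxcl5, 7.41 for Ly6d, 4.74 for Rpl26 and 4.71 for Pira2. They were -10.88 for Gm11430, -6.76 for Dbp, -6.48 for Upk3b, -4.85 for Gm15772 and -4.58 for Afm. Without any single control the difference of Gm10095 was no longer called (12.1 to 13.03), nor without TRUC mouse 4 (4.46), and 1 wild-type mouse also held most of its counts. That of Upk3b was not called without control mouse 2 or 4 or TRUC mouse 3 or 4 (-5.70 to -6.40) or against IL10 alone (-4.81). Those of Cxcl5 (6.30) and Ly6d (5.58) were not called against the mean change of all 5 other models. Dbp was at 3.67 CPM in the wild-type controls and 41.9 CPM in the Rag2-/- controls. In the same order, Ly6d was at 6.24 and 0.051 CPM and Afm at 1.18 and 18.9 CPM in these control groups. Fitted values of genes with no count in a group depend on the prior count.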

How the results depend on the processing

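The counts of genes called in TRUC against the Rag2-/- controls stayed within 1.5 times under the alternatives run, except that 2890 were lower at an adjusted p under 0.01. Leaving out each mouse gave 3373 to 3950 higher and 3527 to 4092 lower. Upper quartile scaling gave 3413 higher and 5251 lower, DESeq2 5012 and 4499, and the wild-type controls, added after seeing the data, 4961 and 5505. For the difference of changes, leaving out each mouse gave 75 to 174 higher and 150 to 334 lower, the stricter threshold 50 and 75, IL10 alone 503 and 798 and DSS alone 1316 and 1928. The cause was not tested.

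With the replicate block on the 4 mice that share the numbers 2 and 4, 3885 genes were higher and 3600 lower, against 3892 and 3629 in the same mice without it. Same-numbered mice did not deviate together, with correlations of -0.0518 and -0.00546. With so few shared numbers, these values cannot show that no mice were paired.

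Directions reversed without TRUC mouse 4 for Gm10095 (-1.61), whose log2 fold change was up to 6.96 without each of the other mice. Against the wild-type controls they reversed for Gm10095 (-0.36), Gm15772 (0.09), Arntl (-0.63), Npas2 (-0.05), Nlrp1b (-3.58), Cd22 (-2.39), Cd3g (-0.57) and Cd8a (-0.60). At an adjusted p under 0.01, 23 of 258 named values lost their call. Against the wild-type controls 16 of 248 did, such as Zg16 (-0.32) and Csf1r (0.22), and 17 gained one, such as Lgr5 (-1.50) and Irf7 (1.32). Depth limits what can be said of cytokines such as Il17a and Il23a, which lay near 3 counts.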
